A study of Homo sapiens with 6 samples.

Results

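The genes described here are those of tumour necrosis factor (TNF) receptor signalling: the ligands TNF and LTB, the receptors TNFRSF1A, TNFRSF1B and LTBR, the adaptors and kinase TRADD, RIPK1, TRAF1 and TRAF2, and the TNF-inducible gene TNFAIP2. They were chosen by name, 10 in all, and 8 of them had a probe set of a single gene in the array's annotation, of 18417 genes that did. RIPK1, the kinase of the receptor complex, and TRAF2, the adaptor that recruits ubiquitin ligases to it, had none in that annotation and were not analysed here. The samples were cultures of A549, a human lung adenocarcinoma line, made as stable cells and grown with fetal bovine serum, starved of serum overnight and then given VP-16 for 48 h. VP-16 is etoposide, which traps topoisomerase II on broken DNA. The control group (C) held 3 arrays and the group labelled H2AX knockdown (P1) held 3, from independent experiments per the design text. How the knockdown was made, and from how many lines, is not given in the sources used here, so the tests measure the spread between experiments. Every sample had received the drug, so the comparison is of knockdown-labelled with control cells under the drug.

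TNF is made as a membrane protein and shed as a trimer, and it binds TNFRSF1A on most cell types and TNFRSF1B mainly on immune and endothelial cells. On TNFRSF1A a complex of TRADD, RIPK1, TRAF2 and ubiquitin ligases starts NF-kB and MAP kinase signalling, and a later complex with FADD and caspase-8 can kill the cell. LTB anchors lymphotoxin heterotrimers to the membrane, and these act on LTBR, which uses TRAF proteins and the noncanonical NF-kB pathway. In epithelial cells the pathway is known for inducing chemokines, adhesion molecules and its own inhibitors.

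No gene of the 8 passed the test (limma, Benjamini-Hochberg adjusted p under 0.05 over all genes): 0 were lower and 0 higher, where 5 of all genes, 0.0271%, were called lower and 1, 0.00543%, higher. With no adjustment, 1 of the 8 was lower at a p under 0.05 (TNFAIP2) and 0 were higher, against 8.38% and 3.78% of all genes. The difference, knockdown-labelled minus control, was below 0 for 4 of the 8 (TNF, TNFRSF1A, LTBR and TNFAIP2), where 51.5% of all genes were, and above 0 for the other 4 (LTB, TNFRSF1B, TRADD and TRAF1), with a median of 0.02 on the log2 scale, beside −0.01 over all genes. The adjusted p of the 8 ran from 0.354 for TNFAIP2 to 0.813 for TNF. The 3 arrays of a group did not overlap with those of the other for 1 gene lower (TNFAIP2) and 1 higher (TRAF1), where 9.82% and 7.17% of all genes were so separated. A p that misses the threshold does not show that the groups are alike. The intervals given with each gene show the differences that the values as deposited allow, and other processing moves them. The RNA came from whole cultures, in which fewer cells expressing a gene and less of its RNA per cell cannot be told apart.

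**Figure D1:**
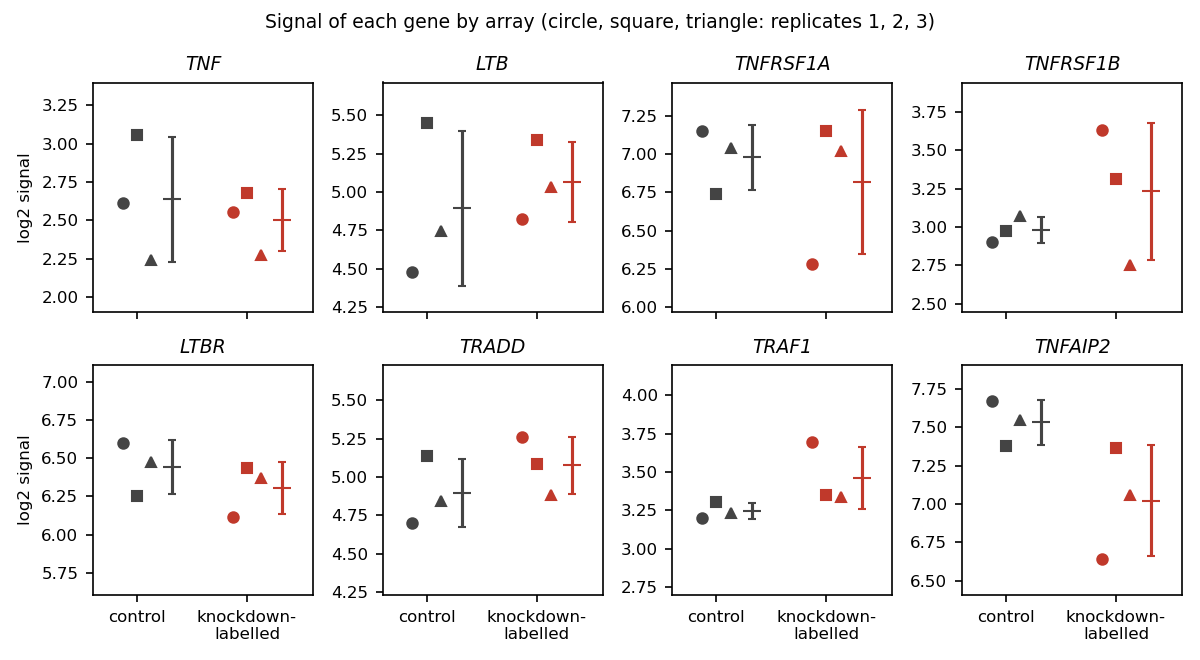
Log2 signal of each of the 8 genes in the 3 control arrays (grey) and the 3 knockdown-labelled arrays (red), with circle, square and triangle for replicates 1, 2 and 3 and the bar beside them for the mean ± SD. Each panel spans the same range on the log2 axis; the groups are separate for TNFAIP2 (lower) and TRAF1 (higher) and overlap in the other 6 panels.

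Facts of the whole set of arrays bear on these values. The deposited arrays did not share 1 distribution, with an SD over all probe sets of 1.60 in knockdown-labelled replicate 1 and 1.71 to 1.86 in the others, and that replicate stood apart on the leading principal component (49.2% of the variance). When genes were put in 5 bins by mean signal, the median difference between groups fell from 0.15 in the dimmest bin to −0.25 in the brightest. The signal of H2AX itself, the targeted gene, was 5.21 ± 0.09 in the control arrays and 5.31 ± 0.16 in the knockdown-labelled arrays (log2, SD, n = 3 each), so that the knockdown-labelled mean was 0.10 higher (limma adjusted p = 0.823, 95% interval −0.25 to 0.45). The label is therefore not borne out by this probe set, and each direction given is that of the label. Of the 8 epithelial and A549 markers looked at, 0 passed the test in limma (2 lower before adjustment) and the median level ran from 8.49 to 8.84 over the control arrays and from 8.03 to 8.56 over the knockdown-labelled arrays. EPCAM, a defining epithelial adhesion protein, was in the dimmest bin (2.42 and 2.57), while the keratin KRT8 read 9.69 and 9.92. Both had the higher mean in the knockdown-labelled arrays. The 2 lower before adjustment were AKR1C1 (9.33 and 8.74) and ALDH1A1 (8.91 and 8.30). KRT18, KRT19, CDH1 and ALDH3A1 also had a lower knockdown-labelled mean. Of all genes 8.38% were lower and 3.78% higher before adjustment. Leukocyte markers (13 measured, 0 passed, 1 lower before adjustment) had a median level of 3.03 to 3.50 and 3.05 to 3.47, and those of fibroblasts and endothelium (10 measured, 0 passed, 1 higher before adjustment) one of 3.05 to 3.44 and 3.29 to 3.53. Of the 13 leukocyte markers 8 were in the 2 dimmest bins, among them the pan-leukocyte gene PTPRC (2.07 in control and 2.19 in knockdown-labelled arrays), and CD14 and NKG7 were in the fourth. TYROBP (5.18 and 5.03) and CD68, a lysosomal protein abundant in macrophages (8.93 and 8.47), were in the brightest, and CD68 was the marker lower before adjustment.

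The ligand TNF, the founding cytokine of the family, had a dim signal that overlapped between the groups. It read 2.61, 3.06 and 2.24 in control replicates 1, 2 and 3 (log2, probe set 8118142, Entrez gene 7124). In the knockdown-labelled replicates it read 2.56, 2.68 and 2.28. The highest value was control replicate 2 and the lowest control replicate 3, so the control arrays spanned all the others. The means were 2.64 ± 0.41 and 2.50 ± 0.21 (SD, n = 3 each), a difference of −0.14 with a standard error of 0.21 and a 95% interval of −0.59 to 0.31 (limma adjusted p = 0.813). On the linear scale that interval runs from 0.666 to 1.24 times the control signal. The sign of this difference rested on 1 array, since it was 0.074 without control replicate 2. Its probe set was in the dimmest of the 5 bins, where the median of all genes was 0.15, and these values do not show whether so dim a signal was above background. The annotation listed 3 probe sets for TNF, with identical values in all 6 arrays, so they are 1 measurement.

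LTB, the lymphotoxin subunit that holds the trimer at the membrane, differed more between replicates than between groups. Its signal was 4.48, 5.45 and 4.75 in control replicates 1, 2 and 3 (log2, probe set 8124950, Entrez gene 4050) and 4.82, 5.34 and 5.03 in the knockdown-labelled ones. All 3 knockdown-labelled values lay inside the range of the controls. The means of 4.89 ± 0.50 and 5.07 ± 0.26 (SD, n = 3 each) gave a difference of 0.17 (95% interval −0.33 to 0.68, limma adjusted p = 0.784). Without control replicate 1 the difference was −0.035, and without control replicate 2 it was 0.45. Of the 4 probe sets listed for LTB, 3 held identical values. The fourth, probe set 8118147, read 3.81, 4.51 and 3.83 in control and 4.44, 4.12 and 4.51 in knockdown-labelled arrays, and its groups also overlapped, with a difference of 0.31 and a standard error of 0.23 (limma adjusted p = 0.579 over all probe sets).

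Of the 7 measured members with a RefSeq promoter entry, only LTB held a match to the NF-kB consensus, on either strand, in the 250 bases before the transcription start. Of all 35116 promoters of that length 9.96% held one. TRADD had no entry. The AP-1 motif TGANTCA, which reads the same on both strands apart from its middle base, was matched in 0 of the 7 and in 6.57% of all promoters. The window of LTB is shown because it carries that match, and the window of TNFAIP2 because its gene had the largest difference of the 8; both are RefSeq sequences of build GRCh38.p14, 5′ to 3′ on the gene's strand, with capitals for the NF-kB consensus match.
LTB, chr6:31582426-31582675, minus strand: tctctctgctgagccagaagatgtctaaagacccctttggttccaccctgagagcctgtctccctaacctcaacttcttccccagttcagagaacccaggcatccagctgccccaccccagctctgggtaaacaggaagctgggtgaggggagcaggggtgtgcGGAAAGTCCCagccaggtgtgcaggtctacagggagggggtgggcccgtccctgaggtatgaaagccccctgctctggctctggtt
TNFAIP2, chr14:103123211-103123460, plus strand: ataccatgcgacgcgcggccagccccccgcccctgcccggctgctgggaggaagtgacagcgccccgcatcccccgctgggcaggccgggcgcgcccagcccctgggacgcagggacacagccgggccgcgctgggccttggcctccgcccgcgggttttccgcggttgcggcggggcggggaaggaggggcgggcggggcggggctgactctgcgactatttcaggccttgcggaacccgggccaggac
In LTB the match lies 86 to 77 bases before the start. A match is a string of letters and not a measured binding site, and its absence says only that these letters were not in the window. In the arrays, LTB, with the match, had a difference of 0.17. The 6 members with an entry and no match lay on both sides of it, from −0.51 for TNFAIP2 to 0.25 for TNFRSF1B. Whether a match goes with a difference was not tested.

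The receptor TNFRSF1A, the death-domain receptor through which TNF starts the TRADD complex, overlapped between the groups, with 1 low array. Control replicates 1, 2 and 3 read 7.15, 6.74 and 7.04 (log2, probe set 7960518, Entrez gene 7132). Knockdown-labelled replicate 1 read 6.28, the lowest of the 6, while replicate 2 read 7.15, level with the highest control, and replicate 3 read 7.02, inside the control range. The means were 6.98 ± 0.21 and 6.82 ± 0.47 (SD, n = 3 each), a difference of −0.16 (95% interval −0.64 to 0.32, limma adjusted p = 0.788). Without knockdown-labelled replicate 1 it was 0.11, and it was also above 0 after quantile normalization (0.063) and cyclic loess (0.12), which removes a shift with brightness. TNFRSF1A was in the brightest bin, where the median of all genes was −0.25.

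TNFRSF1B, the second TNF receptor, which has no death domain and binds TRAF2 directly, was dim and spread widely in the knockdown-labelled arrays. The control arrays read 2.90, 2.97 and 3.07 (log2, probe set 7897877, Entrez gene 7133). The knockdown-labelled arrays read 3.63, 3.31 and 2.75, which are the highest, the next highest and the lowest of the 6 values. This gave 2.98 ± 0.08 against 3.23 ± 0.45 (SD, n = 3 each) and a difference of 0.25 (95% interval −0.20 to 0.70, limma adjusted p = 0.637). The difference was 0.051 without knockdown-labelled replicate 1 and 0.49 without replicate 3, so its size turned on which of these arrays was kept.

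LTBR, the receptor for lymphotoxin heterotrimers and LIGHT, had the narrowest spread of the 3 receptors in the knockdown-labelled group. It read 6.60, 6.25 and 6.48 in control replicates 1, 2 and 3 (log2, probe set 7953321, Entrez gene 4055) and 6.11, 6.44 and 6.37 in the knockdown-labelled ones. Here too knockdown-labelled replicate 1 was the lowest array and the groups overlapped. From 6.44 ± 0.18 to 6.31 ± 0.17 (SD, n = 3 each) the difference was −0.14 (95% interval −0.50 to 0.23, limma adjusted p = 0.765). On the linear scale that interval runs from 0.707 to 1.17 times the control signal, for the values as deposited. The sign of the difference turned after quantile normalization (0.10) and cyclic loess (0.13), with a standard error of 0.13 in each, so the interval depends on the processing.

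The adaptor TRADD, which joins the death domain of TNFRSF1A to RIPK1 and TRAF2, read 4.70, 5.14 and 4.84 in control replicates 1, 2 and 3 (log2, probe set 8001938, Entrez gene 8717). It read 5.26, 5.08 and 4.89 in the knockdown-labelled replicates, so knockdown-labelled replicate 1 was the highest array and control replicate 2 came next. The difference between 4.89 ± 0.22 and 5.08 ± 0.19 (SD, n = 3 each) was 0.18 (95% interval −0.20 to 0.56, limma adjusted p = 0.690). It stayed above 0 in the 15 alternative settings, from 0.084 to 0.32, and passed the threshold in none of them. TRADD was in the fourth bin, where the median of all genes was −0.10.

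TRAF1, a TRAF protein that is itself induced by NF-kB and pairs with TRAF2 and the inhibitor of apoptosis proteins, was the gene of the 8 whose knockdown-labelled arrays all read above the controls. The control arrays read 3.20, 3.31 and 3.23 (log2, probe set 8163825, Entrez gene 7185). The knockdown-labelled arrays read 3.70, 3.35 and 3.34, so that replicates 2 and 3 were only just above the highest control and replicate 1 was clear of it. The means of 3.25 ± 0.05 and 3.46 ± 0.20 (SD, n = 3 each) gave a difference of 0.22 (95% interval −0.14 to 0.57). The adjusted p in limma was 0.605, and a 2-sided exact permutation test gave p = 0.1, the smallest that 3 against 3 arrays allow. Without knockdown-labelled replicate 1 the difference was 0.10. The signal was dim, in the second bin, where the median of all genes was 0.07.

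TNFAIP2, a gene induced by TNF whose protein takes part in forming membrane nanotubes, had the largest difference of the 8 and the only interval that left out 0. It read 7.67, 7.38 and 7.55 in control replicates 1, 2 and 3 (log2, probe set 7977046, Entrez gene 7127). The knockdown-labelled replicates read 6.64, 7.37 and 7.06. All 3 were below the controls, but only just in replicate 2, whose 7.37 stood beside 7.38 in control replicate 2. From 7.53 ± 0.15 to 7.02 ± 0.36 (SD, n = 3 each) the difference was −0.51 with a standard error of 0.19 (95% interval −0.93 to −0.09), or 0.701 times the control signal (0.524 to 0.938). It did not pass the test over all genes (p = 0.0207 and adjusted p = 0.354 in limma), and the 2-sided exact permutation test gave p = 0.1. The difference was −0.32 without knockdown-labelled replicate 1, −0.27 after quantile normalization and −0.23 after cyclic loess. The median of all genes in its bin, the brightest, was −0.25, so the gene lay 0.26 further below 0 than that median; what part of the difference the shift with brightness made up was not tested.

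**Figure D2:**
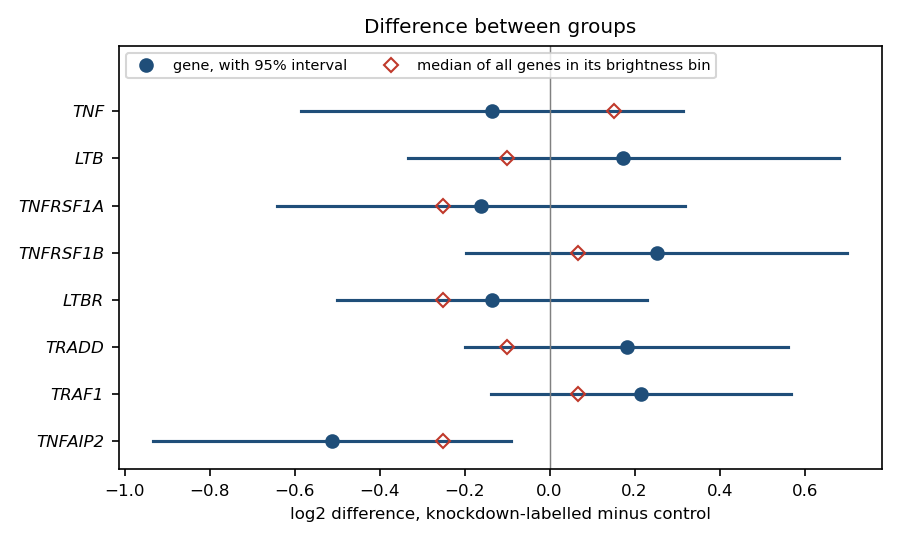
Log2 difference, knockdown-labelled minus control, of the 8 genes (filled points, with the 95% interval from limma as a line) and the median difference of all genes in the same brightness bin (open diamonds). The interval of TNFAIP2 (−0.93 to −0.09) leaves out 0 and the other 7 include it; 5 genes lie above the median of their bin by over 0.1 and TNF and TNFAIP2 lie below it.

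Set beside the median of their brightness bin, the 8 genes took other places than by their signs. TRADD lay 0.28 above the median of its bin, LTB 0.27, TNFRSF1B 0.18, TRAF1 0.15, LTBR 0.12 and TNFRSF1A 0.09. TNF lay below its bin's median, with −0.29, and so did TNFAIP2, with −0.26. So the receptors TNFRSF1A and LTBR, below 0 as measured, lay above the median of the brightest bin. That bin held 3684 genes over a wide range of signal, so its median need not be that of genes as bright as these receptors. These distances are a description with no test of their own.

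Knockdown-labelled replicate 1 stood at an end of the range for 6 of the 8 genes. It was the lowest of the 6 arrays for 3 genes (TNFRSF1A, LTBR and TNFAIP2), all in the brightest bin, and the highest for 3 (TNFRSF1B, TRADD and TRAF1). Over all genes it was the lowest array for 28.4% and the highest for 25.2%. In that array the genes of the brightest bin had a median of −0.45 relative to their control means, while TNFAIP2 was at −0.89 in it, TNFRSF1A at −0.70 and LTBR at −0.33. In replicates 2 and 3 the same bin was at −0.15 and −0.13, with TNFAIP2 at −0.17 and −0.48, TNFRSF1A at 0.17 and 0.041, and LTBR at −0.0072 and −0.071. So TNFRSF1A was below its control mean in replicate 1 only, and TNFAIP2 was below the control mean in each of the 3.

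**Figure D3:**
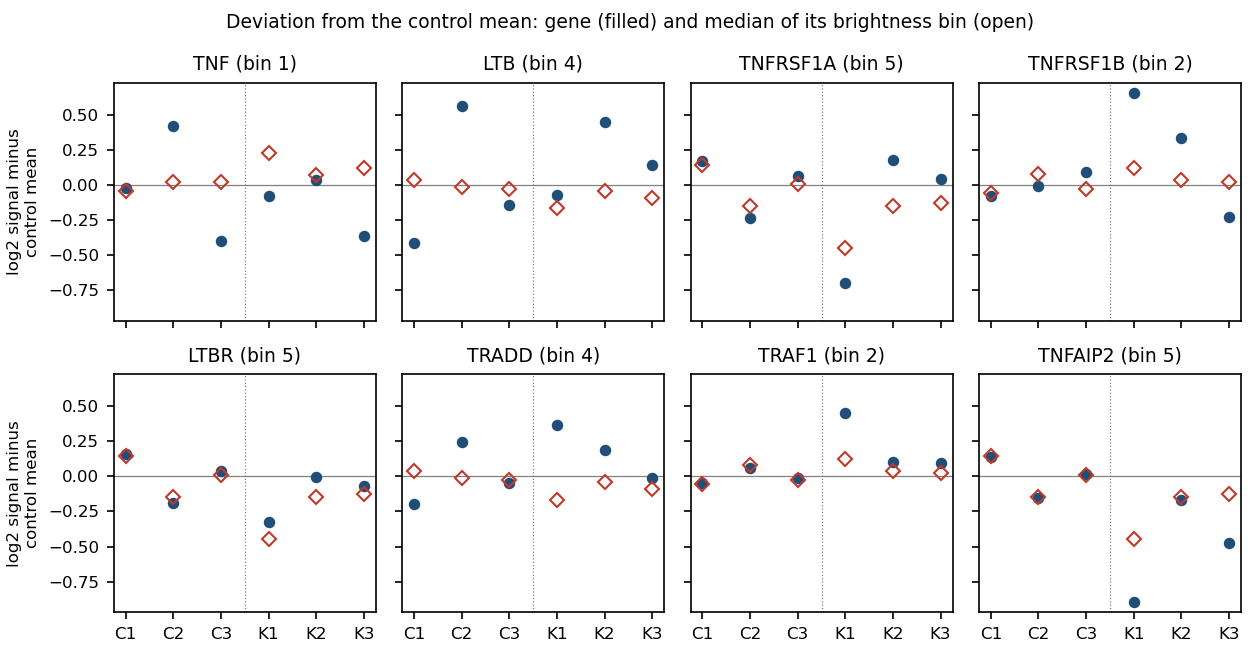
Log2 signal minus the control mean for each of the 8 genes (filled points) and the median of that quantity over all genes of the same brightness bin (open diamonds), by array, with C1 to C3 for control and K1 to K3 for knockdown-labelled replicates. In K1 the brightest bin is at −0.45, with TNFAIP2 at −0.89 and TNFRSF1A at −0.70; LTB and TNF move between replicates of both groups apart from their bins.

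The genes whose pattern over the 6 arrays was most like that of a member were looked up for the 3 members with the smallest p. For TNFAIP2 these were COA3, NOP2 and MTMR10 (Pearson r of 0.997, 0.996 and 0.995, n = 6 arrays), with differences of −0.47, −0.26 and −0.45. For TRAF1 they were COL25A1, P2RY8 and TNN, with r of 0.994 to 0.998 and differences of 0.35, 0.38 and 0.28. CCDC149, OR5L2 and OTOL1 were most like TNFRSF1B, with r of 0.985 to 0.988. With so few arrays, which share the group contrast and the array that stands apart, 929 genes had an r over 0.9 with TNFAIP2, 806 with TRAF1 and 297 with TNFRSF1B, so these names mark no particular likeness.

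Other genes of the pathway were taken from 5 lists. All 5 were written with earlier results of these data known, so that none is independent evidence of a direction. In the complex and the cascade below TNFRSF1A, 0 of 26 measured genes passed the test in either direction, 21 were below 0 (51.5% of all genes were) and the median was −0.27, beside −0.01 over all genes. That median was −0.16 after quantile normalization and −0.15 after cyclic loess. Without adjustment 8 of the 26 were lower at a p under 0.05 and 0 were higher, against 8.38% and 3.78% of all genes. CFLAR, which blocks caspase-8 in the death-inducing complex, went from 5.41 to 4.70 (difference −0.71, limma adjusted p = 0.273), and BIRC2, the ubiquitin ligase cIAP1, from 4.60 to 4.11 (−0.49, adjusted p = 0.327). The kinases TBK1 (−0.58) and IKBKE (−0.40) had adjusted p of 0.327 and 0.357. Groups were separate and lower for 9 of the 26, these 4 included, and separate and higher for 0, against 9.82% and 7.17% of all genes. Of the 26 genes 11 were in the brightest bin.

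Among the other TRAF proteins and the noncanonical arm, 0 of 12 passed (2 lower and 0 higher at p under 0.05 with no adjustment in limma) and 7 were below 0, with a median of −0.12. Over all genes 8.38% were lower and 3.78% higher with no adjustment, and 51.5% were below 0. NFKB2, the precursor processed downstream of LTBR, had a difference of −0.55 (limma adjusted p = 0.289) and TANK, a TRAF-binding regulator, one of −0.40 (adjusted p = 0.369). TRAF7 was at −0.32 and TRAF3IP2, an adaptor of the interleukin-17 receptor, at −0.28, with adjusted p of 0.459 and 0.479. The median was −0.015 without knockdown-labelled replicate 1.

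Of the other ligands of the family 0 of 13 passed, with 0 lower and 1 higher before adjustment, and 12 were above 0 with a median of 0.10. Of all genes 3.78% were higher and 8.38% lower before adjustment, and 51.5% were below 0. The median of these ligands was 0.034 without control replicate 3, 0.19 without control replicate 2, 0.17 without knockdown-labelled replicate 2, 0.053 with array medians subtracted and 0.013 among genes above the median signal. TNFSF11, which encodes RANKL, went from 2.09 to 2.55 (0.47, limma adjusted p = 0.355) and TNFSF8 was at 0.32, TNFSF13B at 0.22 and TNFSF18 at 0.19. Their control means were 2.09, 3.04, 2.50 and 2.12, and dim genes in general were above 0, by 0.15 in the dimmest bin. Of the other receptors 0 of 24 passed, with 3 lower and 0 higher before adjustment, 12 below 0, 12 above and a median of −0.0046. The shares over all genes were the same 8.38% lower and 3.78% higher before adjustment, and 51.5% below 0. TNFRSF9, the costimulatory receptor 4-1BB, had the largest difference of the ligand and receptor genes measured: it read 5.91, 5.24 and 5.45 in control and 4.26, 4.86 and 4.45 in knockdown-labelled arrays, a difference of −1.01 with a standard error of 0.21 (limma adjusted p = 0.192). FAS was at −0.43, the TRAIL receptor TNFRSF10A at −0.41 and TNFRSF14, the receptor HVEM, at 0.36, and their groups overlapped.

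The list with the lowest median was that of TNF-inducible genes, whose low cytokine values were known when it was written, so that it is not independent evidence of their direction. Of 31 measured genes 2 passed as lower, the chemokine gene CXCL1 (−1.25) and the interleukin gene IL1B (−1.48), both with a limma adjusted p of 0.016, and 29 did not pass. Over all genes 0.0271% passed as lower. The difference was below 0 for 28 of the 31, against 51.5% of all genes, and its median was −0.44. Quantile normalization brought that median to −0.22 and cyclic loess to −0.18. In either setting 0 of these genes passed, and 0 of all 18417 genes did. The groups were separate and lower for 15 of the 31, where 9.82% of all genes were, and separate and higher for 0. Counted by brightness, 15 of the 31 genes were in the brightest bin, which had a median difference of −0.25. VCAM1, an adhesion molecule for leukocytes, was at −1.21 (adjusted p = 0.0591) and the monocyte chemokine CCL2 at −1.13 (adjusted p = 0.074). The 3 genes above 0 were ICAM1 (0.27), CD83 (0.21) and SELE (0.05), with limma adjusted p from 0.585 to 0.912. The count of 2 fell to 0 when any 1 array other than knockdown-labelled replicate 3 was left out, and it was 3 without that one. Over all genes the count lower was 8 without that array and 1 without control replicate 2. It was 0 when any other array was left out. Whether the receptor genes and the inducible genes differ in their response was not tested.

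**Figure D4:**
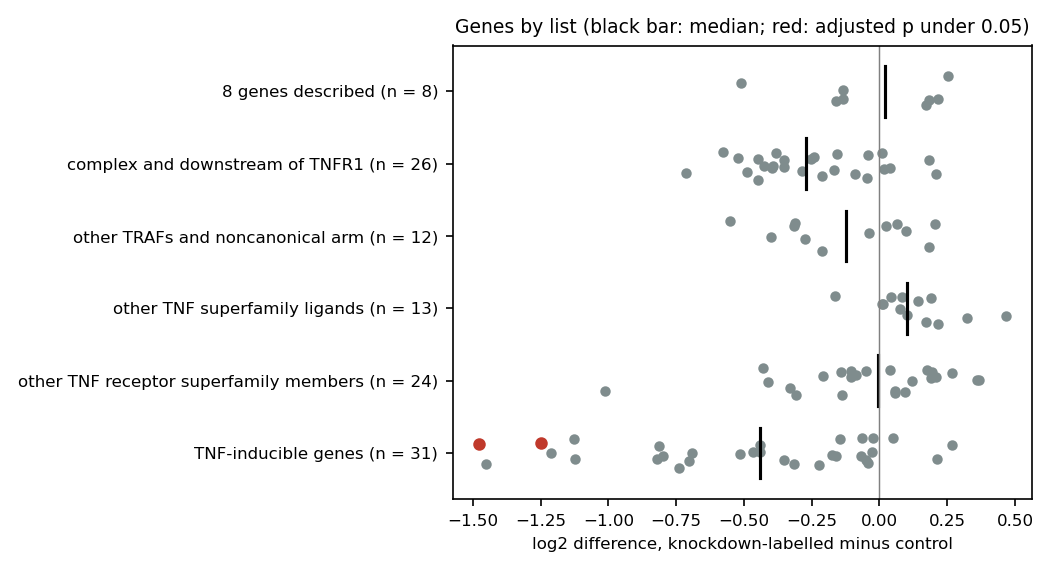
Log2 difference, knockdown-labelled minus control, of each measured gene in the 8 genes described and in the 5 lists of the pathway, with the black bar for the median and red for an adjusted p under 0.05 in limma. The medians are 0.02 for the 8 genes and −0.44 for the TNF-inducible genes, and the 2 red points are CXCL1 and IL1B.

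TNF, TNFRSF1B and TRAF1 were left out by the filter at the median signal and so had 14 alternative settings, and the other 5 genes had 15. Over the settings in which each was tested the signs of TNFRSF1B, TRADD, TRAF1 and TNFAIP2 were kept, and those of TNF, LTB, TNFRSF1A and LTBR were not. No gene passed the threshold in a setting in which it was tested. The lowest adjusted p of any member in limma was 0.170, for TNFAIP2 with array weights, where the difference was −0.41. Those weights were 5.03 for control replicate 3 and from 0.41 to 1.22 for the other arrays, so that setting leaned on 1 control array.

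**Figure D5:**
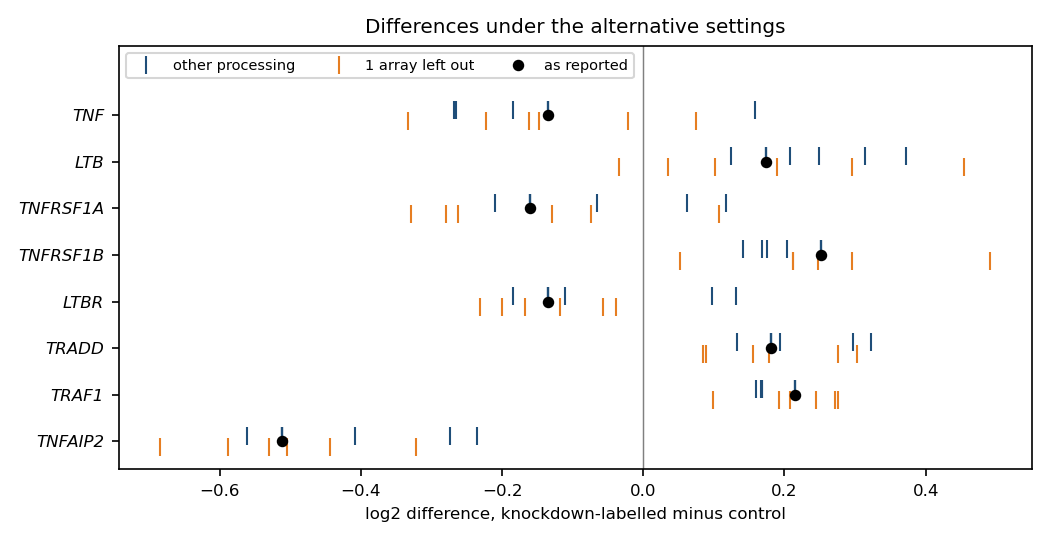
Log2 difference of each of the 8 genes as reported (black points), under other processing (blue ticks, up to 9 settings) and with 1 array left out (orange ticks, 6 settings). The ticks of TNFAIP2 run from −0.68 to −0.23 and those of TNF, LTB, TNFRSF1A and LTBR fall on both sides of 0.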

How the data were processed

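The deposited log2 signals come from RMA, per the submitters' processing notes; the sources used here give no version. Each array held 33297 probe sets, and the scale was read from the values (0.611 to 13.2). RMA compresses differences of dim probe sets, and signal over background cannot be read from its output. The annotation of the platform, which may be out of date, paired 19460 probe sets with 1 gene, and only these were named. Of a gene's probe sets the brightest by mean over the 6 arrays stood for it (18417 genes, no filter on low signals).

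The groups were compared in limma 3.58.1 under R 4.3.3 (lmFit, eBayes), knockdown-labelled minus control, without covariates. Tests were 2-sided, and p-values were adjusted by Benjamini and Hochberg's method across the genes (threshold 0.05). The members and lists were chosen with earlier results of these data known. Named were the members, H2AX, of each list the genes that passed and the 4 with the smallest p, and the 3 genes most like each of 3 members. Marker genes and the 3 TNF-inducible genes above 0 were named after their values were seen. The 15 alternatives were a replicate block, quantile normalization, subtraction of array medians, cyclic loess (5 iterations), only genes above the median signal, the mean of a gene's probe sets, all probe sets tested, a robust fit with an intensity trend, array weights and each of the 6 arrays left out. In arrays simulated for this comparison (18417 genes) the procedure found 53% of 100 genes shifted by 1 log2 unit and 93% of 100 shifted by 2, with 4 false among 150 calls. The noise was drawn for each gene on its own, with no shift shared across an array or with brightness. The deposited arrays had such shifts, so these rates need not hold for them. The number of arrays limits the precision. Plots were made in matplotlib 3.10.9.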

Additional observations from a re-analysis of the deposited data

How the results depend on the processing

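None of the 8 genes passed the threshold in an alternative in which it was tested (14 for TNF, TNFRSF1B and TRAF1, which the filter at the median signal left out, and 15 for the others). The difference of TNF ran from −0.33 to 0.16, of LTB from −0.035 to 0.45, of TNFRSF1A from −0.33 to 0.12 and of LTBR from −0.23 to 0.13. The sign of TNF turned with array weights (0.16) and without control replicate 2 (0.074), that of LTB without control replicate 1 (−0.035), that of TNFRSF1A after quantile normalization (0.063), cyclic loess (0.12) and without knockdown-labelled replicate 1 (0.11), and that of LTBR after quantile normalization (0.10) and cyclic loess (0.13). The median over the 8 was 0.13 after quantile normalization, 0.15 after cyclic loess and with array weights, and −0.14 over the 5 genes above the median signal; with 1 array left out it ran from −0.082 to 0.16. H2AX stayed between 0.010 and 0.28. The cause of these changes was not tested.

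The count of 2 lower TNF-inducible genes was 1 with the replicate block, 0 after quantile normalization, cyclic loess or with every probe set tested, 4 above the median signal, 10 with array weights, and 0 to 3 with 1 array left out. Their median was −0.22 after quantile normalization and −0.18 after cyclic loess, and from −0.53 to −0.26 with 1 array left out. With array weights 1 gene was lower in each of the lists of the TNFRSF1A complex, the other TRAF proteins and the other receptors. In that setting 155 of all 18417 genes were lower, where 5 were in the fit as reported. The median of the other receptors was 0.068 after quantile normalization, 0.073 with array weights, 0.076 after cyclic loess, −0.088 above the median signal, and from −0.071 to 0.12 with 1 array left out. That of the other TRAF proteins was −0.28 above the median signal and from −0.21 to −0.015 with 1 array left out. Over all genes the count of 6 became 191 with array weights, 16 above the median signal, 3 with the mean of probe sets, 0 after quantile normalization, cyclic loess or with every probe set tested, and 0 to 9 with 1 array left out.

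The labels state no pairing of same-numbered samples, whose deviations from the group means had correlations of −0.31, −0.025 and 0.070. Samples with different numbers had correlations from −0.39 to 0.37, so these values cannot show whether the samples were paired. With the replicate number as a block 3 genes were lower and 0 higher over all genes, and TNFAIP2 (−0.51) had a limma adjusted p of 0.479.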
